A study of Mus musculus with 18 samples.

Results

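The 9 genes described here encode the adhesion molecules by which leukocytes stop on and cross a vessel wall. They were taken by name from a count table of 25918 genes, with earlier results of these data known: the vascular selectins Selp and Sele, their leukocyte ligand Selplg, the vascular immunoglobulin-type receptors Icam1 and Vcam1, and the leukocyte integrin chains Itgal, Itgam, Itgb2 and Itga4. All 9 were tested in each comparison. BALB/c mice had given messenger RNA from 2 tissues, the brain cortex and the interparietal bone (part of the skull roof), sequenced as 18 libraries in 6 groups of 3. The cortex groups, called brain here, were controls and tissue taken 2 and 6 days after ischemic injury, and the skull groups were controls and bone taken 2 and 4 days after it. The tissue held ischemic and peri-ischemic regions, per the labels, which give no genetic modification for any group and do not say how the injury was made, whether the controls had surgery, or the age or sex of the mice. The question addressed was how expression in brain and in skull changes after the injury.

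Leukocytes leave the blood in steps. Selectins on activated endothelium bind sugar-decorated ligands such as PSGL-1, the product of Selplg, and let the cells roll. Chemokine signals then switch integrins to their binding state: LFA-1 (Itgal with Itgb2) and Mac-1 (Itgam with Itgb2) bind ICAM-1, and VLA-4, which holds the Itga4 chain, binds VCAM-1. P-selectin, the product of Selp, is stored in endothelium and platelets and brought to the surface within minutes, whereas E-selectin, the product of Sele, is made after induction by cytokines. Resting brain endothelium carries little of these molecules, and microglia, the resident macrophages of brain, express Itgam and Itgb2. Bone marrow, where leukocytes are formed, expresses leukocyte integrins constitutively.

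Sele and Selp lie on one strand of chromosome 1 (mm10, with gene positions from GENCODE M21). Sele spans 164048234 to 164057677 and Selp 164115264 to 164150026. Icam1 is on chromosome 9 (21015985 to 21028817), Vcam1 on chromosome 3 (116109949 to 116129688), Selplg on chromosome 5 (113818536 to 113832644), Itgb2 on chromosome 10 (77530252 to 77565708) and Itga4 on chromosome 2 (79255426 to 79333123). Itgal and Itgam share chromosome 7, at 127296260 to 127335138 and 128062640 to 128118491. The strand used in counting is not given in the sources used here, so that reads of genes overlapping on opposite strands cannot be told apart, and the gene that overlaps Itgam lies on its own strand. The overlapping genes held 0 to 6 counts per library at Selp, 0 to 23 at Icam1, 0 to 5 at Vcam1 and at Itgam and 10 to 61 at Itga4, where Itga4 itself had at least 261.

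RefSeq promoters (GRCm38.p6, the mm10 assembly, C57BL/6J reference) were at hand for 5 of the 9 genes: Selp, Sele, Icam1, Itgam and Itga4. The 250 bases before the RefSeq start are printed for Selp, Sele and Icam1. In brain these genes held 0, 11 and 104 counts over the control libraries and 326, 139 and 742 at day 2. Capitals mark the motifs searched on both strands. These were the NF-kappaB consensus, the related form GGANNTTCC (chosen after these promoters had been read), TATAAA, the AP-1-type TGANTCA and the STAT-type TTCNNNGAA, and in the Sele promoter the second and the last of these matches overlap.
Sele promoter, chr1:164047984-164048233, plus strand: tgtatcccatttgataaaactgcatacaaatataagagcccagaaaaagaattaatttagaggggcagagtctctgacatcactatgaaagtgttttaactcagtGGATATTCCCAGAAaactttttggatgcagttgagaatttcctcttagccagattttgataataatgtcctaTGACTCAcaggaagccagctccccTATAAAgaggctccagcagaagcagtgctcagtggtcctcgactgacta
Icam1 promoter, chr9:21015690-21015939, plus strand: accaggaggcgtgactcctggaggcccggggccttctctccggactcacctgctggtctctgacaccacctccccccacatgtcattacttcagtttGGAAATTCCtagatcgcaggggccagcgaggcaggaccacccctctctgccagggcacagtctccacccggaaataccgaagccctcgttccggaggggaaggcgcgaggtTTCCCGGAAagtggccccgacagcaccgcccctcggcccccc
Selp promoter, chr1:164115014-164115263, plus strand: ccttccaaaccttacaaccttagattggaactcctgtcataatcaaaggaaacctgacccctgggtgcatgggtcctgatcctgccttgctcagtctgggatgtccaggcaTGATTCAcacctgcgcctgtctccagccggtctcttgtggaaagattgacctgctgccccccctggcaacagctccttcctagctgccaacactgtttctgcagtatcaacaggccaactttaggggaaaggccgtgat

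The Sele promoter held GGATATTCC at 145 to 137 bases before the start, TTCCCAGAA at 140 to 132, TGACTCA at 73 to 67 and TATAAA at 49 to 44. The Icam1 promoter held GGAAATTCC at 153 to 145 and TTCCCGGAA at 42 to 34. The Selp promoter held TGATTCA alone, at 139 to 133, and none of these motifs was found in the same window of Itgam or Itga4. The NF-kappaB consensus itself had no match in any of the 5 promoters. Of 32851 promoters of this length, 3.59% held GGANNTTCC, 7.25% the NF-kappaB consensus, 7.02% TTCNNNGAA, 6.75% TGANTCA and 12.4% TATAAA. A match describes the letters of the reference and not a bound site.

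Levels are normalised read counts, in CPM on the TMM scale of edgeR within a tissue, and a group is given by its mean ± SD over 3 libraries. Each change is a log2 fold change with its standard error (±) from edgeR's quasi-likelihood fit, and it was called at a Benjamini-Hochberg adjusted p under 0.05 over all genes tested. No label says that the libraries came from separate animals, so that a p-value measures the spread between libraries, which may be technical. In bulk tissue, more cells of a type and more RNA per cell cannot be told apart. Total counts per library were 13005050 to 27654269. Neuronal and osteoblast genes followed the labelled tissues. The summed level of 6 neuronal genes was 5943 to 7897 CPM in control brain and 445 to 528 in control skull. That of 5 osteoblast genes was at most 35.2 CPM in control brain and at least 21303 CPM in control skull. The list of 8 microglial genes is not particular to brain, as it summed to 203 to 234 CPM in control brain and to 381 to 400 in control skull.

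The cortex went from almost no vascular selectin transcripts to clear expression at day 2 and lost them again by day 6. Selp had no count in any of the 3 control brain libraries, 83, 112 and 131 counts in the day 2 libraries, and 2 counts in each day 6 library. In CPM the day 2 libraries stood at 4.60, 5.74 and 7.06 and the day 6 libraries at 0.103, 0.0916 and 0.162. The 3 brain groups did not overlap, and Selp was high at day 2 alone. The mean of 5.80 ± 1.23 CPM at day 2 was at least 145-fold higher than in controls, against a floor of 3 counts over the control group (edgeR adjusted p = 2.51e-06). From day 2 to day 6 it fell by 5.61 ± 0.48 on the log2 scale (adjusted p = 6.10e-05) and stood at 2.05% of its day 2 level. The 6 counts at day 6 against 0 in controls gave an adjusted p of 0.0299, and this call was lost without any 1 of the control libraries or without day 6 replicate 2 or 3 (adjusted p = 0.0555 to 0.0780).

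Sele, the cytokine-inducible endothelial selectin, followed Selp at a lower level (0.856 ± 0.258 against 1.31 ± 0.279 CPM per kilobase of exon at day 2). Its control libraries held 0, 7 and 4 counts, the day 2 libraries 47, 33 and 59, and the day 6 libraries 3, 1 and 0. The day 2 libraries lay above all others, at 2.60, 1.69 and 3.18 CPM, and those of controls and day 6 overlapped. The rise at day 2 was 4.04 ± 0.73 (adjusted p = 0.00102), and without control replicate 2, which held most of the control counts, it was 4.80. The fall to day 6 was -4.97 ± 0.85 (adjusted p = 0.00250), and -6.16 without day 6 replicate 1. At day 6 Sele did not differ detectably from controls (-0.93 ± 1.10, adjusted p = 0.648, 4 counts against 11).

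Markers of the cells that could carry these selectins were read in the same libraries, and their part in the selectin changes was not tested. Of 10 endothelial genes, 9 rose at day 2, where 14.7% of all genes did. The control libraries had a summed level of 185 to 204 CPM, those of day 2 one of 286 to 467 and those of day 6 one of 276 to 310. The sums of days 2 and 6 overlapped. The 4 platelet genes tested had a median log2 change of -0.03 at day 2. The platelet sum was 4.31 to 8.50 CPM in controls and 5.37 to 10.5 at day 2, with overlap.

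**Figure D1:**
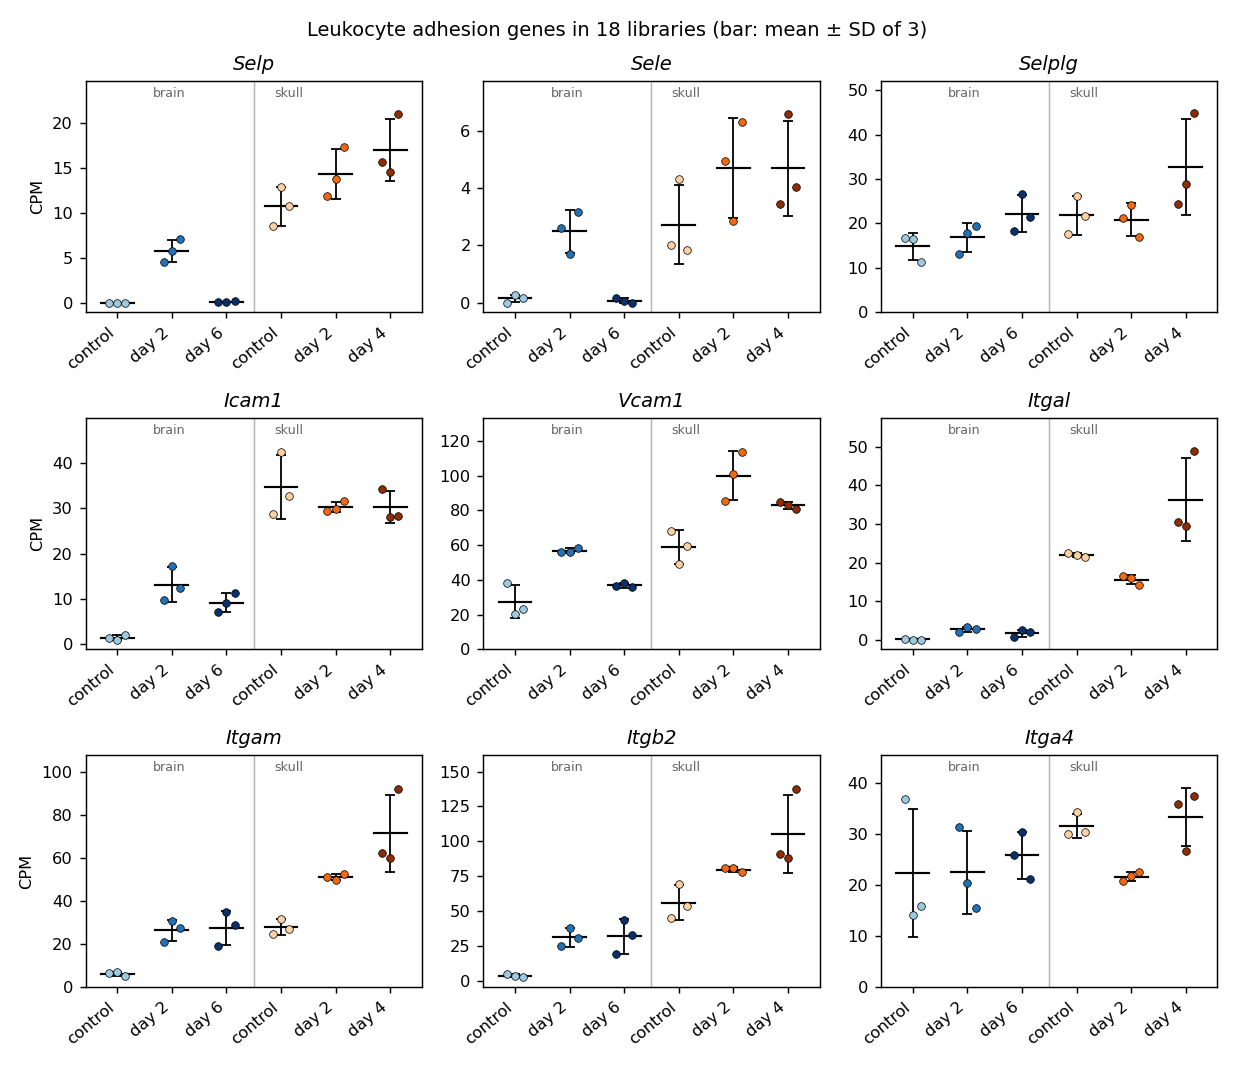
Level of each of the 9 genes in every library, in CPM, by group of brain and skull. Points are the 3 libraries of a group, with their mean as a line and their SD as an error bar. Selp and Sele stand up in brain at day 2 alone (mean 5.80 and 2.49 CPM), whereas Itgam and Itgb2 stay high in brain at day 6 (27.3 and 31.8 CPM).

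Selplg, the ligand on leukocytes, changed little in brain. Its control libraries were at 16.8, 16.5 and 11.3 CPM, the day 2 libraries at 13.2, 17.9 and 19.5 and the day 6 libraries at 18.4, 26.6 and 21.6. Controls and day 2 overlapped, and the day 6 libraries lay above the controls by a small margin. Neither change was called: 0.18 ± 0.20 at day 2 (adjusted p = 0.568) and 0.58 ± 0.20 at day 6 (adjusted p = 0.0823). DESeq2 called the latter (adjusted p = 0.0441), as did the fit without day 6 replicate 1 (0.0476).

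Icam1, the endothelial and leukocyte ligand of LFA-1 and Mac-1, rose in brain and stayed up. It was at 1.30, 0.930 and 2.00 CPM in controls, 9.75, 17.2 and 12.4 at day 2, and 7.16, 9.07 and 11.2 at day 6. All injured libraries lay above all control libraries, and days 2 and 6 overlapped. The rise was 3.22 ± 0.31 at day 2 (adjusted p = 1.01e-05) and 2.69 ± 0.31 at day 6 (adjusted p = 1.32e-04). The level at day 6 was 69.7% of that at day 2, a change of -0.53 ± 0.27 that was not called (adjusted p = 0.237).

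Vcam1, the endothelial ligand of VLA-4, was already well expressed in control brain and rose by less. Its control libraries were at 38.1, 20.5 and 23.5 CPM, the day 2 libraries at 56.2, 56.1 and 58.3 and the day 6 libraries at 36.5, 38.5 and 35.8. Control replicate 1 stood at the level of the day 6 libraries, and the day 2 libraries lay above all others. The rise at day 2 was 1.06 ± 0.18 (adjusted p = 0.00117). The change from day 2 to day 6 was -0.62 ± 0.18 (adjusted p = 0.0443), and it was no longer called with any 1 of the 6 libraries of these days left out (adjusted p = 0.0865 to 0.147). Against controls, day 6 differed by 0.43 ± 0.18 (adjusted p = 0.166), and by 0.77 (adjusted p = 9.56e-04) without control replicate 1.

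Itgb2 and Itgam rose in brain at day 2 and had similar levels at day 6. Itgb2, the shared β2 chain, was at 4.73, 3.12 and 2.79 CPM in controls, 24.5, 37.9 and 30.5 at day 2 and 18.9, 43.6 and 32.9 at day 6. Itgam, the α chain of Mac-1 carried by microglia, monocytes and neutrophils, was at 6.24, 6.69 and 4.75 CPM in controls, 20.8, 30.4 and 27.5 at day 2 and 18.8, 34.5 and 28.7 at day 6. For both chains the injured libraries lay above the controls and the 2 days overlapped. Itgb2 rose by 3.13 ± 0.33 at day 2 (adjusted p = 1.15e-04) and by 3.16 ± 0.33 at day 6 (adjusted p = 3.48e-04), and Itgam by 2.15 ± 0.23 (adjusted p = 3.91e-05) and 2.21 ± 0.23 (adjusted p = 1.09e-04). Day 6 stood at 103% of day 2 for Itgb2 and at 104% for Itgam, with changes of 0.04 ± 0.29 and 0.06 ± 0.22 that were not called (adjusted p = 0.955 and 0.897).

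Itgal, the α chain of LFA-1 found mainly on lymphocytes, neutrophils and monocytes, rose from almost no counts. Its control libraries held 7, 0 and 1 counts, the day 2 libraries 36, 65 and 54 and the day 6 libraries 15, 53 and 24. All injured libraries lay above all controls. The rise was 4.59 ± 0.76 at day 2 (adjusted p = 5.78e-04), a ratio of 25.8 with a 95% counting interval of 12.8 to 60.9, and 3.91 ± 0.77 at day 6 (adjusted p = 0.00468). Control replicate 1 held 7 of the 8 control counts, and without it these changes were 6.74 and 6.07. Day 6 and day 2 overlapped, and the change between them was -0.68 ± 0.57 (adjusted p = 0.485).

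Itga4, the α4 chain of VLA-4, showed no call in brain. The control libraries were at 36.9, 14.2 and 15.9 CPM, the day 2 libraries at 31.4, 20.5 and 15.5 and the day 6 libraries at 25.8, 30.4 and 21.1. The groups overlapped throughout, and control replicate 1 was the highest of all 9 libraries. The changes were 0.01 ± 0.40 at day 2 (adjusted p = 0.992) and 0.21 ± 0.40 at day 6 (adjusted p = 0.803).

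Of the 9 genes, 7 rose at day 2 and none fell, where 14.7% of the 18151 genes tested rose and 9.99% fell. The libraries of day 2 lay above all controls for these 7 genes and below them for none, as they did for 21.8% and 17.2% of all genes. The median change of the 9 was 3.13, and that of all genes was 0.00. At day 6, 5 were higher than in controls and none was lower, where 7.93% and 2.39% of all genes were. Of the 9 genes, 6 lay above the controls without overlap (16.1% of all genes) and none below (14.7%). Between days 2 and 6, 3 were lower at day 6 (Selp, Sele and Vcam1) and none was higher, where 6.26% and 5.3% of all genes were. For these 3 genes the libraries of the 2 days did not overlap, as was so for 16.6% of all genes that were lower and 13.9% that were higher. These comparisons share their control or day 2 libraries, and the values of the days are therefore given side by side. The 9 genes are expressed by shared cell types and are not independent of each other.

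**Figure D2:**
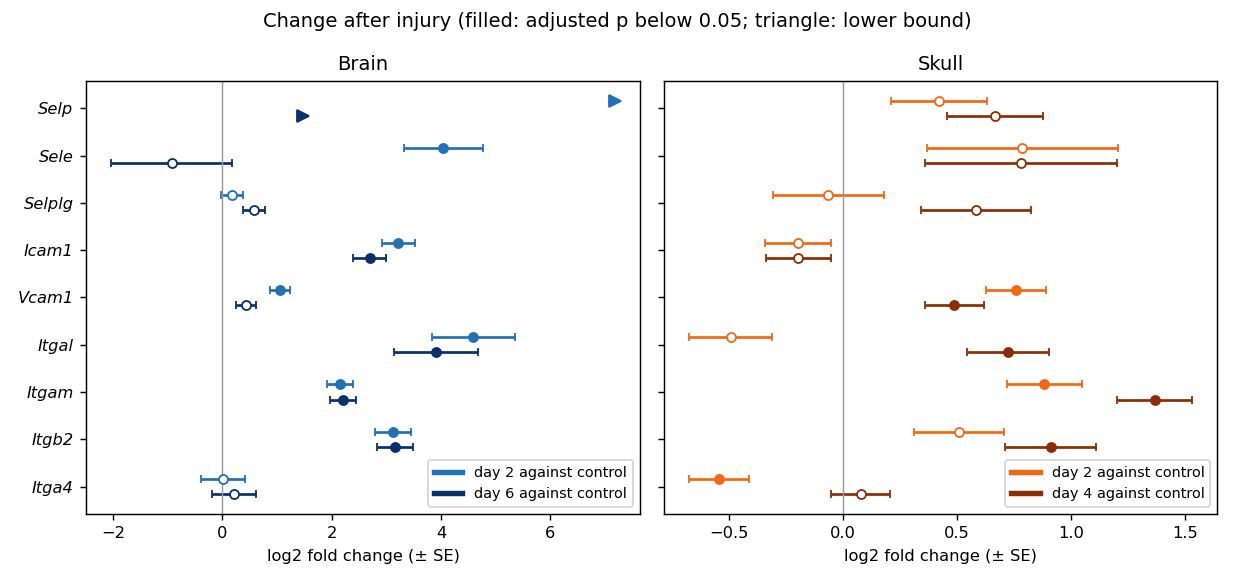
Log2 fold change of each of the 9 genes against the controls of its tissue, with bars of 1 standard error of the edgeR fit. Filled points were called at an adjusted p under 0.05 and open points were not, triangles mark the lower bounds of Selp in brain, and the horizontal scale differs between the brain and skull panels. In brain at day 2, 7 genes lie right of 0 and were called, and in skull at day 2, 2 did.

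The rest of the adhesion pathway was read from 6 lists holding 58 measured genes besides the 9. In brain at day 2, 34 of the 54 tested rose, with a median change of 1.08, where 14.7% of all genes rose and 9.99% fell. The day 2 counts of single lists below are to be read against the same shares. None of the 54 was called lower by edgeR, where 6 were lower at an unadjusted p under 0.05. DESeq2 called 2 lower, and edgeR called 1 with RLE factors, 2 without day 2 replicate 1 and 1 without control replicate 1 or without day 2 replicate 3. All 10 genes of the signals that induce adhesion molecules, a list that also holds inhibitors of these signals, were higher. Among them, Tnf, the cytokine that induces E-selectin, ICAM-1 and VCAM-1 in endothelium, had no count in the controls and 37, 52 and 46 counts at day 2 (adjusted p = 3.02e-05). Its receptor Tnfrsf1a rose by 2.72 ± 0.30, the interleukin-1 receptor Il1r1 by 2.24 ± 0.22 and Nfkbia, an inhibitor and target of NF-kappaB, by 1.41 ± 0.17.

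Of the selectin partners and the enzymes that build their sugars, 9 of 15 tested rose at day 2. Cd44, a hyaluronan receptor that also binds E-selectin, rose by 3.85 ± 0.36, Gcnt1, a branching enzyme of selectin ligands, by 2.06 ± 0.26, and Podxl, a sialomucin, by 1.63 ± 0.21.

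Of 11 genes that switch integrins on or regulate this switch, 8 rose at day 2. The adaptor Fyb rose by 3.03 ± 0.20, Apbb1ip, which links Rap1 to talin, by 2.57 ± 0.29, Skap2 by 1.27 ± 0.17 and the GTPase Rap1b by 0.87 ± 0.11. Of 7 genes of transmigration, 3 rose, among them Pecam1, the junctional receptor of endothelium and leukocytes, by 1.72 ± 0.15 and Cdh5, the endothelial cadherin, by 1.24 ± 0.26. Icam2 rose by 1.83 ± 0.33 and was 1 of 4 further immunoglobulin-type receptors tested. Of 7 further integrin chains, Itgb1, the partner of Itga4 in VLA-4, rose by 1.26 ± 0.15, Itga5 by 1.89 ± 0.34 and Itgb7, the other partner of Itga4, by 2.15 ± 0.59. Both β partners of Itga4 thus rose while Itga4 itself was not called.

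At day 6, 24 of the 54 genes were above controls (7.93% of all genes were) and edgeR called none below (2.39% were). Of the 54, 2 were lower at an unadjusted p under 0.05. DESeq2 called 1 below, and edgeR called 3 in a fit of the 2 groups alone. The count of genes above controls was 15 without control replicate 2 or without day 6 replicate 2. Fyb (2.60 ± 0.20), Apbb1ip (2.12 ± 0.29), Gcnt1 (2.13 ± 0.26), Cd44 (2.51 ± 0.35), Il1r1 (1.41 ± 0.22) and Itgb1 (0.91 ± 0.15) were among them. Fermt3, the kindlin of blood cells, was higher by 1.98 ± 0.35 and Il1a, the α form of interleukin-1, by 2.29 ± 0.27. Glycam1, which encodes a mucin of lymph node venules, was higher by 4.06 ± 0.82, with 0, 5 and 0 counts in the control libraries against 15, 24 and 22. All day 2 libraries lay above the controls for Fermt3, Il1a and Glycam1 too. From day 2 to day 6 their means went from 18.8 to 14.8, 4.24 to 5.44 and 2.30 to 1.22 CPM.

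From day 2 to day 6, 10 of the 54 were lower (6.26% of all genes were) and 3 were higher (5.3% were, a share near that of the lists). These 13 calls came to 6 without replicate 3 of day 6, to 7 without replicate 1 of that day and to 8 without replicate 3 of day 2. The falls of Il1b (-3.57 ± 0.56), Pecam1 (-1.11 ± 0.15) and Podxl (-1.09 ± 0.20) were called with each library left out in turn. Itgax, the α chain of the β2 integrin CD11c of dendritic cells and activated microglia, moved the other way. It was at 1.66, 3.13 and 2.32 CPM at day 2 and at 13.2, 47.3 and 28.9 at day 6, without overlap, a rise of 3.65 ± 0.58 (adjusted p = 0.00624).

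The makeup of the β2 integrin α chains in brain was set side by side per kilobase of exon, as each α chain needs Itgb2 as its partner. Itgam made up 86.0% ± 3.32 of the summed Itgal, Itgam, Itgax and Itgad levels in controls, 84.5% ± 1.14 at day 2 and 47.8% ± 7.96 at day 6. Itgax made up 7.45% ± 6.15, 7.86% ± 0.955 and 49.5% ± 8.19. In each day 6 library the share of Itgax was at least 41.1%, and it was at most 14.5% in the 6 other brain libraries. Itgal reached 6.70% ± 0.371 at day 2, above all libraries of the other brain groups, and 2.12% ± 0.347 at day 6. Itgb2 and Itgam were thus at similar levels at both days, and Itgax was higher at day 6. The summed α chains stood at 0.611 ± 0.0311 times the level of Itgb2 at day 2 and at 1.13 ± 0.0633 times at day 6, against 1.21 ± 0.245 times in controls. Shares were not tested, as 3 libraries against 3 cannot reach a p under 0.10 in an exact two-sided permutation test, and exon lengths are those of GENCODE M21, which may not be the authors' annotation.

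**Figure D3:**
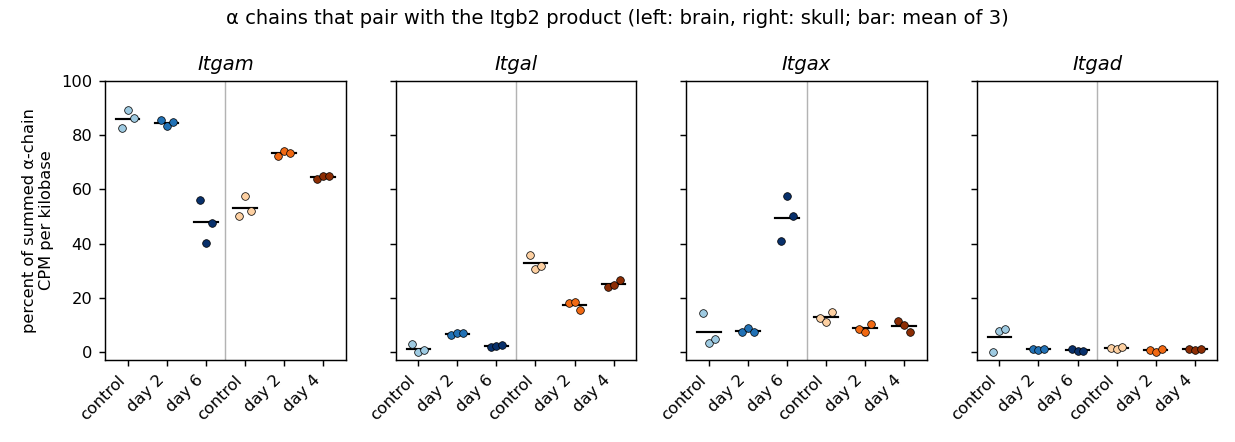
Share of each β2 integrin α chain (Itgal, Itgam, Itgax, Itgad) in their summed level per kilobase of exon, in percent, by group. Points are libraries and lines the mean of 3. Itgax makes up 49.5% in brain at day 6 and 7.86% at day 2, and Itgam makes up 73.3% in skull at day 2.

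The sums of neutrophil, monocyte and microglial markers were higher than in controls at both brain days, and their part in the integrin changes was not tested. The sum of 10 neutrophil genes lay at 7.85 to 12.1 CPM for controls, rose to 79.4 to 102 CPM by day 2 and was 34.3 to 45.3 CPM by day 6. Of 7 tested genes of this list, 5 were higher at day 2, where 14.7% of all genes were. The sum of 7 monocyte genes was 11.8 to 15.5, 179 to 318 and 418 to 1612 CPM. Most of its rise from day 2 to day 6 was Lyz2, a lysozyme of macrophages (192 ± 56.7 to 1005 ± 589 CPM), whereas Ccr2, the chemokine receptor of incoming monocytes, was at 20.2 ± 4.97 and then 3.56 ± 1.21 CPM. The sum of 8 microglial genes was 203 to 234, 371 to 405 and 403 to 635 CPM. The neutrophil sum thus stood highest at day 2, and so did Ccr2, although the sum of its monocyte list stood highest at day 6. The microglial sums of the 2 injured groups overlapped, as did the endothelial sums given above. A list of 7 genes of brain border macrophages also overlapped, with sums from 124 to 198 CPM on day 2 against 85.1 to 159 CPM on day 6. Whether any list followed the selectins or the integrins was not tested. T cell genes reached at most 3.25 CPM in the controls, 7.18 at day 2 and 14.0 at day 6, where Cd3d was at 0 in all 3 libraries.

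Control skull carried more of nearly all 9 genes than control brain. Of the 9, 8 were called higher in skull, where 36.4% of 18173 genes were, and none was called higher in brain, where 34.5% were. The libraries of these 8 did not overlap, with brain lower, as was so for 39.3% of all genes, and 37.4% lay apart with brain higher. Selp, with 127, 191 and 157 counts in control skull, was at least 267-fold higher than in control brain. The log2 difference, brain minus skull, was -7.63 ± 0.58 for Itgal, -4.65 ± 0.29 for Icam1, -4.20 ± 0.77 for Sele, -4.01 ± 0.26 for Itgb2, -2.26 ± 0.17 for Itgam and -1.15 ± 0.26 for Vcam1. That of Selplg was small (-0.58 ± 0.21, adjusted p = 0.0371), and it was lost with some libraries left out (adjusted p up to 0.0998). Itga4 was not called (-0.53 ± 0.38, adjusted p = 0.246) and was lower in brain by -1.09 (adjusted p = 5.86e-04) without control brain replicate 1. Without that library the difference of Itgal was -9.72, and that of Sele was -3.63.

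Per kilobase of exon, Itgb2 led in control skull with 18.3 ± 4.08 CPM per kilobase, followed by Icam1 at 7.96 ± 1.61 and Vcam1 at 6.66 ± 1.08. In control brain Selplg (3.48 ± 0.72) and Vcam1 (3.09 ± 1.06) led, and Icam1 was at 0.323, with libraries at 0.213 to 0.458. At day 2 Itgb2 led in brain as well, at 10.2 ± 2.19 CPM per kilobase. Neutrophil genes summed to 1360 to 2423 CPM in control skull and B cell genes to 83.7 to 92.2, against 0.893 to 1.38 for B cell genes in control brain. Endothelial genes summed to 937 to 1272 CPM in control skull, so that leukocyte and vessel markers were both higher than in brain. Their part in the difference was not tested.

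In skull at day 2, 2 of the 9 genes rose (17.8% of 17450 genes did) and 1 fell (16.6% did). These shares are near those of all genes. Libraries lay apart for 3 genes that were higher (24.9% of all genes) and 2 that were lower (22.8%). Vcam1 was at 68.3, 49.1 and 59.8 CPM in controls and at 85.3, 101 and 113 at day 2, with no overlap, a rise of 0.76 ± 0.13 (adjusted p = 0.00223). Itgam was at 24.3, 31.6 and 26.9 CPM in controls and at 50.8, 49.5 and 52.4 at day 2, again with no overlap, a rise of 0.88 ± 0.16 (adjusted p = 0.00333). Itga4 fell from 30.1, 34.3 and 30.4 CPM to 20.7, 21.7 and 22.5 (-0.55 ± 0.13, adjusted p = 0.0106). These 3 calls were kept with each library left out in turn.

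Selp, Sele and Icam1, which rose in brain at day 2, were not called in skull at that time. Selp was at 8.54, 12.9 and 10.7 CPM in controls and at 11.9, 13.8 and 17.4 at day 2, with overlap (0.42 ± 0.21, adjusted p = 0.149). Sele was at 2.02, 4.32 and 1.84 CPM in controls and at 4.95, 2.87 and 6.31 at day 2, with overlap (0.79 ± 0.42, adjusted p = 0.172), and without control replicate 2, the highest control, it was called (1.29, adjusted p = 0.0277). Icam1 was at 28.8, 42.5 and 32.8 CPM in controls and at 29.4, 29.7 and 31.6 at day 2 (-0.20 ± 0.14, adjusted p = 0.309). The groups of all 3 genes overlapped.

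Itgal and Itgb2 parted in skull at day 2 without being called. Itgal was at 22.5, 21.9 and 21.5 CPM in controls and at 16.6, 15.9 and 14.3 at day 2 (-0.49 ± 0.18, adjusted p = 0.0592). Itgb2 was at 44.8, 69.4 and 53.7 CPM in controls and at 80.7, 80.7 and 77.9 at day 2 (0.51 ± 0.20, adjusted p = 0.0745). Neither pair of groups overlapped, and DESeq2 called both (adjusted p = 0.0383 and 0.0389), as did a fit of these 2 groups alone (0.0133 and 0.0474). Selplg differed by -0.07 ± 0.24 (adjusted p = 0.856).

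At day 4 the leukocyte chains stood highest in skull. Itgam was at 62.3, 59.7 and 91.7 CPM (1.37 ± 0.16 against controls, adjusted p = 0.00747), Itgb2 at 90.6, 87.7 and 138 (0.91 ± 0.20, adjusted p = 0.0259) and Itgal at 30.5, 29.6 and 48.8 (0.72 ± 0.18, adjusted p = 0.0339). Vcam1 was at 84.9, 82.9 and 80.7 CPM (0.49 ± 0.13, adjusted p = 0.0437). These 4 of 9 were called higher and none lower, where 5.83% and 4.79% of all genes were. With Selp, 5 of the 9 lay above all control libraries (17.1% of all genes) and none below (13.9%). Day 4 replicate 3 was the highest library for each of the 3 integrin chains. None of the 4 calls held without control replicate 3 (adjusted p = 0.0542 for Itgam, 0.0995 for Itgb2, 0.118 for Itgal and 0.138 for Vcam1), when 10 of all genes were called in place of 1853, and 1 held without day 4 replicate 3, and 2 without control replicate 1.

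The remaining genes were not called at day 4. Selp was at 15.7, 14.5 and 21.0 CPM, above all control libraries (0.67 ± 0.21, adjusted p = 0.0711), and Selplg at 24.4, 28.8 and 44.8 (0.58 ± 0.24, adjusted p = 0.154). Sele differed by 0.78 ± 0.42, Icam1 by -0.20 ± 0.14 and Itga4 by 0.08 ± 0.13 (adjusted p = 0.261, 0.414 and 0.742). From day 2 to day 4, 2 of the 9 rose and none fell, where 10.6% and 11.1% of all genes did. Libraries lay apart for 5 genes that were higher (21.4% of all genes) and 1, Vcam1, that was lower (21.2%). These were Itgal by 1.22 ± 0.18 (adjusted p = 0.00207) and Itga4 by 0.62 ± 0.13 (adjusted p = 0.00944), whose groups did not overlap. Itga4 thus fell at day 2 and overlapped with the controls again at day 4, and Itgal then lay above them.

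Within the β2 family of skull, Itgam made up 53.3% ± 3.80 of the α chains per kilobase in controls, 73.3% ± 0.896 at day 2 and 64.5% ± 0.728 at day 4. Itgal made up 32.6% ± 2.71, 17.2% ± 1.68 and 25.0% ± 1.34. For both chains the 3 groups did not overlap. Itgax stayed between 7.23% and 14.6% in all 9 skull libraries.

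Markers of marrow cells shifted in the same skull libraries, and their part in these results was not tested. B cell genes summed to at least 83.7 CPM in the controls, at most 21.8 at day 2 and 32.7 to 98.4 at day 4. T cell genes summed to 21.6 to 28.2, 10.6 to 14.9 and 19.1 to 24.5 CPM in these groups. Both lists were thus lowest at day 2, as Itga4 and Itgal were. So were the endothelial sums given below and those of border macrophage genes (423 to 457, 262 to 322 and 502 to 591 CPM). Neutrophil genes summed to 1360 to 2423, 2577 to 2840 and 4383 to 8279 CPM. Of these 10 genes, 9 were called higher at day 4, where 5.83% of all genes were. The number of genes called at day 4 depended on the libraries kept. It was 1853, 10 without control replicate 3 and up to 2537 with another library left out. Endothelial genes summed to 647 to 755 CPM at day 2, below all libraries of the controls and of day 4 (993 to 1157). Of these 10 genes, 6 were called lower at day 2, where 16.6% of all genes were. Vcam1 was higher, and which cells of the bone carried it was not tested. Marrow stromal genes summed to 464 to 544 CPM in controls and 883 to 953 at day 2, and platelet genes to 234 to 274 in controls and 334 to 749 at day 4. Neuronal genes summed to 445 to 528 CPM in control skull and to 31.9 to 121 at day 2, whereas astrocyte genes summed to 561 to 1155 CPM in the controls and 1063 to 1119 at day 2, with overlap. Erythroid genes summed to 10812 to 14244 CPM in controls and to 8049, 4693 and 1341 in replicates 1, 2 and 3 of day 2, and osteocyte genes to 79.8 to 113 and 244 to 271 CPM.

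The pathway lists moved in both directions in skull. At day 2, 17 of 57 tested genes were higher and 8 lower, with a median change of 0.22, where 17.8% of all genes were higher and 16.6% lower. The share of lower genes is near that of all genes. Il1r1 rose by 1.25 ± 0.09, Mcam, an endothelial and stromal adhesion receptor, by 1.22 ± 0.11, and the integrin chains Itga5, Itgav, Itgb1 and Itgb3 by 0.94 ± 0.08, 0.80 ± 0.14, 0.76 ± 0.11 and 0.69 ± 0.15. B4galt1, Gcnt1 and Cd44, which build or carry selectin ligands, rose by 0.90 ± 0.09, 0.85 ± 0.16 and 0.71 ± 0.11. The integrin activators Rap1b, Rap1a and Skap2 rose by 0.61 ± 0.07, 0.59 ± 0.08 and 0.65 ± 0.09. Skap1, an adaptor known from T cells, fell by 1.75 ± 0.44 on the log2 scale, from 54 counts over the control libraries to 16. Jam2, a junctional receptor, and Cd24a, a P-selectin ligand of developing B cells, fell as well (-0.91 ± 0.09 and -1.18 ± 0.27).

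At day 4, 16 of 57 were higher than in controls (5.83% of all genes were) and 1 was lower (4.79% were), and none was called by edgeR without control replicate 3, with the lowest adjusted p at 0.0542 among the 12 genes that the naming rule picked. From day 2 to day 4, 14 rose (10.6% of all genes did) and 7 fell (11.1% did, a share near that of the lists). These 21 calls came to 12 without day 4 replicate 3 and to 13 without replicate 1 of that day or replicate 2 of day 2. Spn, the leukocyte sialomucin CD43, rose by 1.34 ± 0.18 and Cd24a by 1.66 ± 0.27. Il1r1 and Itga5 fell from their day 2 levels (-0.96 ± 0.09 and -0.85 ± 0.08), and Jam2 returned by 0.76 ± 0.09.

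The day 2 responses of the 2 tissues were compared directly as an interaction over the 12 libraries of controls and day 2. For 6 of the 9 genes the response was larger in brain, and for none larger in skull, where 14% and 3.6% of 18863 genes were called so. Larger means a larger log2 fold change over the control of the tissue, and these 6 genes were lower in control brain than in control skull. In CPM, the mean of Itgam went from 5.89 to 26.2 in brain and from 27.6 to 50.9 in skull. That of Icam1 went from 1.41 to 13.1 in brain and from 34.7 to 30.2 in skull. The difference of responses was 5.14 ± 0.64 for Itgal (adjusted p = 3.15e-04), 3.47 ± 0.36 for Icam1 (adjusted p = 1.15e-04), 3.29 ± 0.86 for Sele (adjusted p = 0.0200), 2.67 ± 0.30 for Itgb2 (adjusted p = 1.82e-04) and 1.32 ± 0.23 for Itgam (adjusted p = 0.00272). For Selp the fitted difference was 9.37 (adjusted p = 3.50e-05), a value that depends on the prior count because control brain had no count. Without control brain replicate 1 the difference was 7.24 for Itgal, and without control brain replicate 2 it was 4.04 for Sele.

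The same contrast did not call Vcam1 (0.35 ± 0.30, adjusted p = 0.447), Selplg (0.30 ± 0.30, adjusted p = 0.531) or Itga4 (0.61 ± 0.48, adjusted p = 0.423). Itga4 was called without control brain replicate 1 (1.18, adjusted p = 0.0269). The median difference over all genes was 0.20, and each of the 6 called values exceeded it by more than 1. Of all genes called, 79.5% were larger in brain, and 63.6% were when all 18 libraries entered 1 fit, which put the median at 0.08. Of the 57 pathway genes tested, 30 had a larger response in brain (14% of all genes did) and 2 in skull (3.6% did, a share near that of the lists), with a median of 0.93. Among those larger in brain were Cytip (4.53 ± 0.51), a regulator of leukocyte adhesion, Cd44 (3.20 ± 0.35), Fyb (2.92 ± 0.26) and Pecam1 (1.98 ± 0.20).

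**Figure D4:**
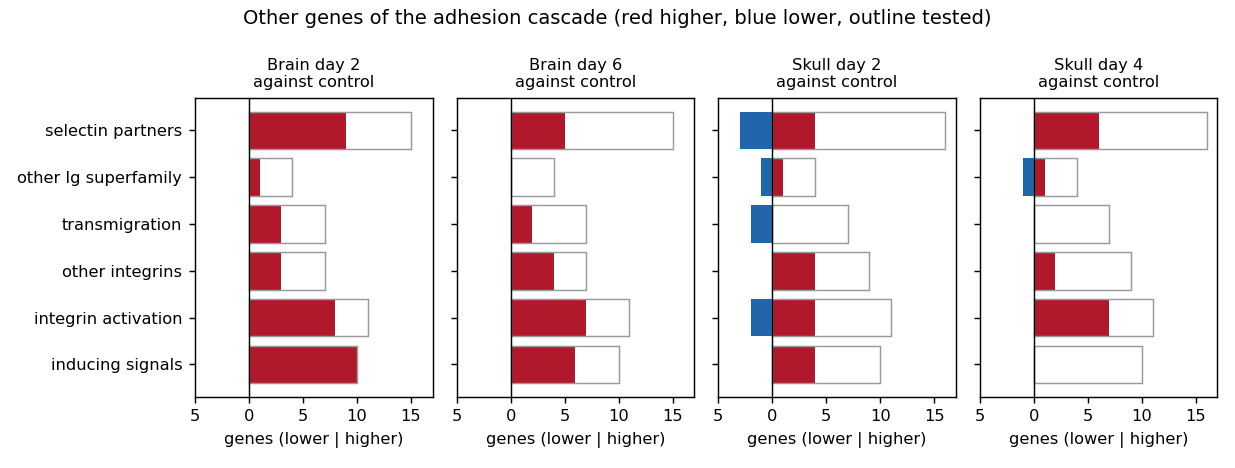
Number of genes called higher and lower in each of 6 lists of the adhesion pathway, in each injured group against the controls of its tissue, with the number tested as an outline. In brain at day 2, 34 of 54 genes were called higher and 0 lower by edgeR, where 14.7% and 9.99% of all genes were. In skull at day 2 the 57 tested genes split into 17 higher and 8 lower, where 17.8% and 16.6% of all genes were.

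Across the 6 groups the order of the levels differed between the genes. Selp rose from control brain over brain at day 6, brain at day 2, control skull and skull at day 2 to skull at day 4. Of its neighbours in this order, control skull and skull at day 2 overlapped, as did the injured skull groups, and the others were apart. Icam1 was highest in control skull (34.7 ± 7.02 CPM), which overlapped with both injured skull groups, and its brain peak of 13.1 ± 3.79 CPM lay below every skull library. Itgal in brain at day 2 (2.75 ± 0.684 CPM) was likewise below every skull library. By contrast, Sele and Vcam1 in brain at day 2 (2.49 ± 0.751 and 56.9 ± 1.26 CPM) and Itgam in brain at both days overlapped with control skull. For Selplg and Itga4 each neighbouring pair of groups overlapped.

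Genes whose levels moved most like those of the 9 are given as a description, by Pearson's r of log2(CPM + 1) over the 9 libraries of a tissue, which share the injury contrast and the libraries. In brain, the genes most like Selp included Cxcl1 (r = 0.993), a neutrophil attractant, and Ly6a (0.992). Icam1 was most like Tlr1 (0.995), a Toll-like receptor, Pik3cg (0.989), a leukocyte kinase, and Fyb (0.988). The correlation of Icam1 was 0.955 with Itgb2, 0.665 with Selp and 0.537 with Sele. Itgb2 was most like the complement receptor C3ar1 (0.997), the Fc receptor Fcgr3 (0.997) and Adgre1 (0.996), the macrophage antigen F4/80. Itgam shared Fcgr3 (0.998) with it, and the correlation between Itgam and Itgb2 was 0.993, whereas that of Selp with Itgb2 was 0.534 and that of Selp with Sele 0.970. In skull, Selp went more with Itgb2 (0.915) and less with Sele (0.595), and Itgam was most like Rdh12 (0.984), the monocyte chemokine receptor Ccr2 (0.983) and Lcp2 (0.982).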

How the data were processed

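Messenger RNA of 18 libraries was extracted with TRIzol, selected by poly(A) and read as Illumina pairs of 150 bases, per the labels' protocols. HISAT2 2.1.0 and the build mm10 are named in the submitters' processing notes; how reads were counted (program, annotation, strand) is not given in the sources used here. Raw counts per gene were deposited by the authors in a single table, with no normalization; 865 surplus identical copies of 49 names were removed from its 26783 lines.

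Tests used edgeR 4.0.16, with limma 3.58.1, under R 4.3.3: filterByExpr by group, TMM factors, robust dispersions and quasi-likelihood tests, two-sided, over the 9 libraries of a tissue, the 12 of controls and day 2 for the interaction, and the 6 controls. Adjustment followed Benjamini-Hochberg over all genes tested. Fitted changes use a prior count of 0.125, and no standard error is given where a group had no count. A fold against such a group uses a floor of 3 counts over the group. Floors and counting intervals cover only the error of counting. The procedure was tested on simulated data.

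The 9 genes and the lists were chosen with earlier results of these data known. All 9 are named. Of each pathway list and comparison, up to 4 called genes with the smallest adjusted p, and up to 3 called against the list's main direction, were to be named; of these, genes whose call was lost with a library left out, and some others, are given by count alone, and 1 gene is not reported here. Il1b between the brain days is among those named. Likeness, on log2(CPM + 1), was sought among genes averaging 1 CPM or more. The alternatives were RLE factors, no filter, DESeq2 1.42.0, library sizes without 5 haemoglobin genes and the 20 most abundant genes, a replicate block, a fit of the groups compared alone or of all 18 libraries, TMM over all libraries for levels, and leaving out each library; TMM within each tissue for the interaction was added after seeing the data.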

Additional observations from a re-analysis of the deposited data

Results flagged for a closer look

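The day 2 responses of 6 genes differed between brain and skull by the interaction test over 12 libraries (log2 difference, brain minus skull): Selp 9.37, with no count in control brain, Itgal 5.14, Icam1 3.47, Sele 3.29, Itgb2 2.67 and Itgam 1.32. For Icam1 and Itgal the fitted changes in skull were below 0 and were not called, at -0.20 and -0.49. Groups of 3 libraries are too small for a test of single outlying libraries.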

How the results depend on the processing

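Over all alternatives, 845 of the values of the 9 genes kept their direction and their side of the threshold, 39 lost a call, 17 gained one and 24 changed sign. The number of the 9 genes called stayed within 1.5 times its value in brain, in the interaction and between the controls. With single libraries left out it was 7 in each case for brain at day 2, 4 to 6 at day 6, 2 between the brain days, 6 to 7 for the interaction and 7 to 9 between controls. In skull, 3 genes were called at day 2, and 5 with DESeq2, 5 in a fit of the 2 groups alone and 3 to 5 with libraries left out. At day 4, 4 were called, 1 in the fit of the 2 groups alone and 0 to 4 with libraries left out. From day 2 to day 4, 2 were called, 4 with DESeq2 and 2 to 3 with libraries left out. Over all genes, 1853 were called in skull at day 4, 2842 with DESeq2, 1004 in the fit of the 2 groups alone and 10 to 2537 with libraries left out. With libraries left out, 1005 to 2091 were called in brain at day 6 in place of 1873, 910 to 1948 between the brain days in place of 2099, 2185 to 3979 for the interaction in place of 3313 and 2260 to 3057 between the skull days in place of 3772. The cause of these shifts was not tested; fits with fewer libraries have fewer degrees of freedom.

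Changes of sign were near 0 and none was called. Itga4 in brain at day 2 was -0.0057 with RLE factors, -0.0066 with DESeq2 and -0.31 to 0.59 with libraries left out. Icam1 between the skull days was -0.0057 with RLE factors, -0.0052 with DESeq2, -0.028 in the fit of the 2 groups alone and -0.098 to 0.052 with libraries left out. With libraries left out, Itga4 ranged from -0.032 to 0.81 in brain at day 6, from -0.0040 to 0.53 between the brain days and from -0.0082 to 0.22 in skull at day 4. Between the brain days Itgam ranged from -0.15 to 0.27 and Itgb2 from -0.27 to 0.31. Selplg ranged from -0.21 to 0.093 in skull at day 2 and Sele from -0.33 to 0.27 between the skull days. Of the 54 group levels, TMM over all 18 libraries moved 2 by more than their SD: Vcam1 in brain at day 2 to 54.9 CPM and Itgb2 in skull at day 2 to 81.9.

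The labels tie same-numbered libraries to no shared animal or day. The correlation of their deviations was -0.04 to 0.23 in brain and -0.46 to 0.16 in skull. With the replicate number as a block, 7 of the 9 genes were called in brain at day 2, 5 at day 6, 3 between these days, 3 in skull at day 2, 1 at day 4 (Itgam), 2 between the skull days, 5 in the interaction and 7 between controls. The block lost Sele in the interaction (adjusted p = 0.0683) and Selplg between controls (0.0504), and 765 genes in all were called in skull at day 4. It called 1 pathway gene lower in brain at day 2, in place of 0.

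Depth limits the genes with few counts: Selp, Sele and Itgal in control brain held 0, 11 and 8 counts over 3 libraries, and 3 counts over that group correspond to 0.0401 CPM. Changes of Itgal and Sele against control brain therefore rest on single libraries for their size. With 3 libraries a group, a change that was not called may still be present.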
